A study of Mus musculus with 5 samples.

Results

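Short RNA polymerase II (RNA Pol II) sites without E2F4 are stretches of at most 1500 bp where RNA Pol II reads were dense over whole cell extract (WCE) and E2F4 reads were few. They were chosen on chromosomes 1 to 19 in bins of 500 bp. A bin counted as occupied with at least 10 distinct RNA Pol II reads and a fold of at least 3 over WCE, occupied bins with at most 1 bin between them were joined, and a region was kept if none of its bins, nor the bin on either side, held more than 3 E2F4 reads. Of 13480 RNA Pol II regions, 2192 met this rule. Of the others, 8962 were as short but had more than 3 E2F4 reads in a bin, 173 were longer and without E2F4, and 2153 were longer and with E2F4. RNA Pol II, E2F4 and WCE reads chose the sites, so their levels there are given as a description. H3K27me3 reads and the strands of the reads were not used in the choice. Of the surroundings, the rule used the E2F4 reads of the bin on either side, and joining left the nearest bins unoccupied by RNA Pol II. Distances to other RNA Pol II regions rest on the same RNA Pol II and E2F4 limits.

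All 5 libraries came from secondary mouse embryonic fibroblasts with doxycycline-inducible Klf4, Sox2 and Oct4, and the labels give no doxycycline treatment. The fibroblasts were harvested at 13.5 days post coitum from chimeric embryos made with inducible pluripotent cells, and 48 hours of puromycin (2 µg/ml) were used to keep the cells descended from them. How many host cells remained is not given. Serum was listed at 10% for all 5 libraries. RNA Pol II (antibody 8WG16), E2F4 and H3K27me3 (trimethylated lysine 27 of histone H3) had 1 library each, and WCE without antibody had 2. No replicate spread can be had for an antibody, and each comparison below is between libraries or between regions of a library.

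RNA Pol II transcribes protein-coding genes. It accumulates at promoters, where it starts and often pauses, travels through gene bodies, and is also found at enhancers. Antibody 8WG16 binds the C-terminal repeats of its largest subunit and prefers the form that carries few phosphates, which is typical of promoters. E2F4 is a transcription factor that sits with the pocket proteins p107 and p130 at promoters of cell cycle genes in resting cells. H3K27me3 is laid down by Polycomb repressive complex 2 and marks silenced genes.

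On the autosomes the RNA Pol II library had 3111606 distinct reads, the E2F4 library 1971874 and the H3K27me3 library 9483163, while the WCE libraries had 417799 (replicate 1) and 11226593 (replicate 2). Per the file headers, RNA Pol II, E2F4 and WCE replicate 1 came from 1 sequencing run with 26 bp alignment seeds, and H3K27me3 and WCE replicate 2 from another with 36 bp. A count of 0 allows up to 3 reads. Intervals are exact at 95% and cover counting error only, since amplified reads are not independent molecules and regions differ among themselves by more than counting error.

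The sites were weak and narrow next to the short sites with E2F4. They covered 1.52 Mb and held 68707 RNA Pol II reads, 2.21% of the library, against 8.88 Mb and 1090345 reads, 35.04%, for the short sites with E2F4. The highest bin of a site held 10 to 286 RNA Pol II reads with a median of 16, whereas the short sites with E2F4 had 10 to 436 and a median of 76. A single bin made up 1510 of the 2192 sites (68.9%), 513 spanned 1000 bp and 169 spanned 1500 bp. Among the short sites with E2F4, 27.2% were a single bin. The whole autosomal genome had 0.669% of its bins occupied by RNA Pol II under the rule, and the sites were 16.3% of the resulting regions.

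The share of short regions that lacked E2F4 fell with RNA Pol II strength. It was 68.7% (66.2 to 71.1) where the highest bin held 10 to 14 RNA Pol II reads, 43.002% (40.5 to 45.6) at 15 to 24 reads, 19.6% (17.9 to 21.4) at 25 to 49 reads and 3.51% (3.07 to 3.99) at 50 reads or more. Both quantities belong to the rule, and median E2F4 counts were lowest in the weakest class in both kinds of region, so nothing is read from this trend. In the weakest of these classes the short sites with E2F4 had a median of only 4 E2F4 reads, 1 above the limit. The strongest class still left 221 sites without E2F4.

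**Figure D1:**
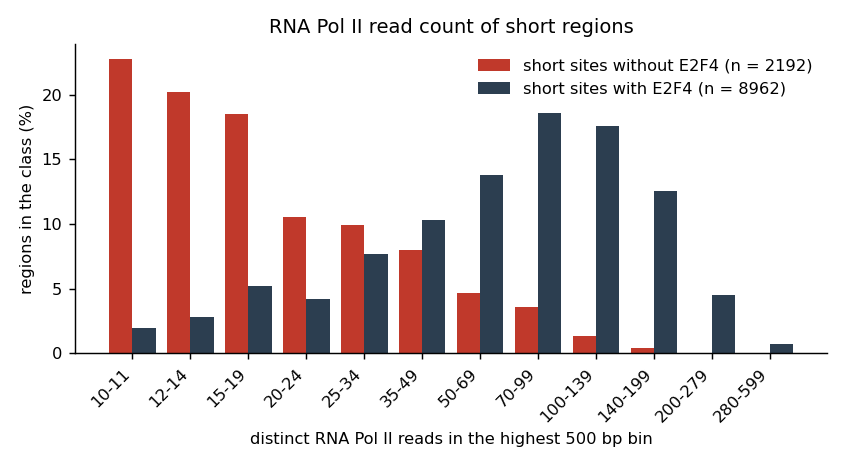
Distinct RNA Pol II reads in the highest 500 bp bin (x axis, classes of reads) against the percentage of regions of each class (y axis), for 2192 short sites without E2F4 (red) and 8962 short sites with E2F4 (dark). The sites without E2F4 have a median of 16 reads and those with E2F4 a median of 76.

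The regions on either side of each limit are given without a test. The 761 sites with 3 E2F4 reads in their highest bin had a median of 25 RNA Pol II reads and 7 H3K27me3 reads. The 650 regions just outside, with 4 E2F4 reads, had medians of 35 and 8. At the lower end, 260 sites had exactly 10 RNA Pol II reads in the highest bin, and 395 bins away from any region had 9 reads and met the limits on fold and E2F4. The lowest fold of a highest bin was 3.02, for chromosome 6 from 83984501 to 83985500 (mouse build mm8, as all positions here), with 36 RNA Pol II reads against 42 WCE reads over its 1000 bp. The nearest bin under the minimum stood at 2.99. The 169 sites at the length limit of 1500 bp had a median of 54 RNA Pol II reads, and the 83 regions without E2F4 just over it, at 2000 bp, a median of 72.

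The strongest sites are listed by the lower limit of their RNA Pol II ratio to WCE. Chromosome 11 from 87287501 to 87288000 came first, with 58 RNA Pol II reads and a lone WCE read, which gave a ratio of 217 (37.4 to 8719). It had 0 E2F4 and 0 H3K27me3 reads, and only 10 of its 58 RNA Pol II reads lay on the plus strand. In addition 60 RNA Pol II reads with 2 listed places fell there. Its ratio rests on 1 WCE read, and the interval is correspondingly wide.

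Chromosome 4 held 3 of the 5 sites. From 128385501 to 128386000 there were 48 RNA Pol II, 3 E2F4 and 13 H3K27me3 reads against 2 WCE reads, an RNA Pol II ratio of 89.8 (23.5 to 763). From 116687501 to 116689000 there were 251 RNA Pol II, 5 E2F4 and 5 H3K27me3 reads against 28 WCE reads, a ratio of 33.5 (22.7 to 51.5). From 46217001 to 46217500 there were 127 RNA Pol II, 2 E2F4 and 7 H3K27me3 reads against 12 WCE reads, a ratio of 39.6 (21.9 to 78.7). These 3 sites had reads on both strands in similar numbers, with 20 of 48, 124 of 251 and 54 of 127 on the plus strand. The remaining site, chromosome 16 from 20054001 to 20055500, had 152 RNA Pol II, 6 E2F4 and 7 H3K27me3 reads against 15 WCE reads, a ratio of 37.9 (22.3 to 69.4).

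The most RNA Pol II reads of any site were 354, on chromosome 11 from 101474001 to 101475500. It held 7 E2F4, 4 H3K27me3 and 49 WCE reads over its 1500 bp, with at most 3 E2F4 reads in a bin, and lay 5.5 kb from an RNA Pol II region with E2F4. Just outside the rule, chromosome 10 from 79809501 to 79811000 had 261 RNA Pol II and 9 E2F4 reads with 4 in its highest bin.

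The name of the sites holds as a limit on reads, not as an absence of E2F4. Summed over all sites there were 4119 E2F4 reads, a ratio to WCE of 0.781 (0.756 to 0.807) by library totals and 1.12 (1.08 to 1.16) with libraries scaled on background bins. At the short sites with E2F4 library totals gave 6.31 (6.28 to 6.34) and background bins 9.04 (8.999 to 9.09). E2F4 reads at the sites were 2.82 times (2.73 to 2.91) as dense as in the flanks, which are the sequence 5 to 20 kb away outside every RNA Pol II region. WCE replicate 2 stood there at 2.51 times (2.48 to 2.54) its flanks and WCE replicate 1 at 0.616 (0.529 to 0.712). E2F4 and WCE both entered the rule, so these values are a description. Whether the remaining E2F4 reads stem from bound E2F4 was not tested.

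No E2F4 read at all was found in any bin, neighbours included, of 137 sites (6.25%), while 566 had a highest count of 1, 728 of 2 and 761 of 3. These 137 sites were weaker still, with 10 to 95 RNA Pol II reads and a median of 12, against 10 to 354 and a median of 20 for the other 2055. Both counts belong to the rule, and longer sites have more bins for reads of either kind. The part of length in this difference was not tested. The strongest of the 137 were chromosome 7 from 11861501 to 11862500 with 95 RNA Pol II reads, chromosome 8 from 112968501 to 112969000 with 75 and chromosome 10 from 76151001 to 76152500 with 52. Their WCE reads numbered 23, 9 and 15, so the RNA Pol II ratios were 15.5 (9.72 to 25.6), 31.2 (15.6 to 70.8) and 12.97 (7.19 to 24.8). Their H3K27me3 reads numbered 4, 24 and 10. The site on chromosome 8 was thus among those with more H3K27me3 than WCE, at a ratio of 3.27 (1.47 to 8.00).

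Other ways of counting added E2F4 reads to some sites. With repeats of a position kept, 440 of the 2192 sites had more than 3 E2F4 reads in a bin. Reads listed at 2 places gave more than 3 in a bin at 49 sites. Where the limit was set on all E2F4 reads, repeats and reads with 2 places included, 1617 sites met the rule in place of 2192. Of these, 60.9% lay within 20 kb of a region with E2F4, in place of 56.8%.

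The antibody-free libraries were not level at the sites. WCE replicate 2 had a median of 12 reads per site (0 to 81) and was 4.46 times as dense as its autosomal mean, and WCE replicate 1 stood at 0.713 of its mean. At the short sites with E2F4 these values were 7.23 and 0.677. WCE replicate 1 had 0 reads at 2042 of the 2192 sites (93.2%), so it says little of a single site. Within 200 bp of the median RNA Pol II read, WCE replicate 2 stood 2.12 times (2.09 to 2.16) above its level 2 to 3 kb away, and WCE replicate 1 at 0.408 of it (0.316 to 0.520). The part of this uneven extract in the choice of sites was not tested. Scored within the first sequencing run, RNA Pol II stood 50.1 times (43.4 to 58.3) above WCE replicate 1 at the sites, against 8.01 times (7.90 to 8.12) above WCE replicate 2.

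H3K27me3 reads were denser at the sites than around them, less so than WCE replicate 2 but more so than WCE replicate 1. Summed over the sites there were 18867 H3K27me3 reads, 1.97 times (1.94 to 2.002) as dense as in the flanks. WCE replicate 2 stood at 2.51 times its flanks and WCE replicate 1 at 0.616 (0.529 to 0.712). Against the summed WCE the ratio was 0.744 (0.731 to 0.758), and within the second sequencing run, against WCE replicate 2, it was 0.722 (0.709 to 0.735). The short sites with E2F4 had 2.25 times (2.23 to 2.26) their flanks and 0.469 (0.465 to 0.472) of WCE. The intervals of the ratio to WCE did not overlap between the 2 kinds of site. However, the fold limit of the rule allows fewer WCE reads in bins with fewer RNA Pol II reads. The highest bin held a median of 16 RNA Pol II reads without E2F4 and 76 with E2F4. The part of this limit in the difference was not tested. With WCE replicate 1 as the only background, 944 sites were found and the ratio was 16.7 (10.9 to 26.97), the opposite direction. At the unchanged 2192 sites fell 0.199% of the autosomal H3K27me3 reads, 0.276% of those of WCE replicate 2 and 0.0440% of those of WCE replicate 1. H3K27me3 thus stood above WCE replicate 1 there too, without a new choice of sites. WCE replicate 2 gave 30957 of the 31141 WCE reads at these sites, so the ratio of 0.744 is mostly one to that library. WCE replicate 1 is shallow and enters the rule, and its part in the size of the ratio of 16.7 was not tested.

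**Figure D2:**
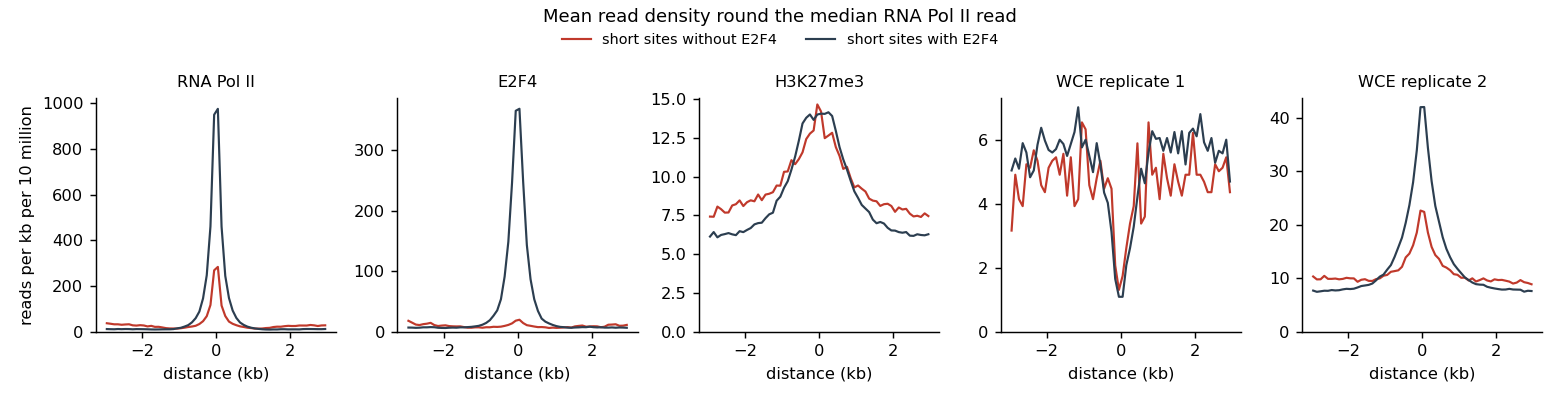
Mean read density (y axis, distinct reads per kb per 10000000 autosomal reads, a separate scale for each library) against the distance from the median RNA Pol II read of a site (x axis, kb, steps of 100 bp), for short sites without E2F4 (red) and with E2F4 (dark). H3K27me3 peaks at a similar height in both, WCE replicate 2 is lower at the sites without E2F4, and WCE replicate 1 dips in both.

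Per kb the H3K27me3 level itself hardly differed between the 2 kinds of short site. It was 13.1 reads per kb per 10000000 autosomal reads at the sites without E2F4 and 13.3 at those with E2F4, a ratio of 0.982 (0.967 to 0.997, exact conditional binomial test, two-sided, p = 0.021). This small difference changed direction with the limits of the rule, at 1.02 with 5 E2F4 reads allowed and 1.02 with at least 15 RNA Pol II reads. Over single sites the median was 9 H3K27me3 reads per kb (quartiles 6 and 14) without E2F4 and 11 (quartiles 8 and 15.3) with E2F4. WCE differed more, with 20 WCE reads per kb in the median site without E2F4 against 32 in the median site with E2F4. WCE enters the rule, so this is a description.

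Split by RNA Pol II strength, a choice made after the data were seen, the picture was mixed. In the weakest class, 10 to 14 reads in the highest bin, H3K27me3 stood at 0.815 of WCE (0.788 to 0.842) at the sites without E2F4 and at 0.819 (0.783 to 0.858) at those with E2F4. At 15 to 24 reads the values were 0.730 (0.706 to 0.754) and 0.739 (0.719 to 0.758). Up to there the intervals overlapped. At 25 to 49 reads they were 0.755 (0.728 to 0.784) and 0.604 (0.594 to 0.615), and at 50 reads or more 0.637 (0.609 to 0.667) and 0.421 (0.418 to 0.425). WCE enters the rule, and its part in these ratios was not tested.

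The H3K27me3 level per kb, which does not involve WCE, was lower at the sites without E2F4 in the weaker classes and higher in the stronger ones. Its ratio, sites without over sites with E2F4, was 0.832 (0.796 to 0.869) and 0.836 (0.809 to 0.865) in the 2 weaker classes, and 1.05 (1.01 to 1.08) and 1.12 (1.08 to 1.17) in the 2 stronger ones. WCE went one way throughout, with ratios of 0.837, 0.847, 0.837 and 0.743 from the weakest class to the strongest. The 221 strongest sites without E2F4 thus had more H3K27me3 and less WCE than equally classed sites with E2F4. The class has no upper limit, and a difference in RNA Pol II strength within it was not tested.

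**Figure D3:**
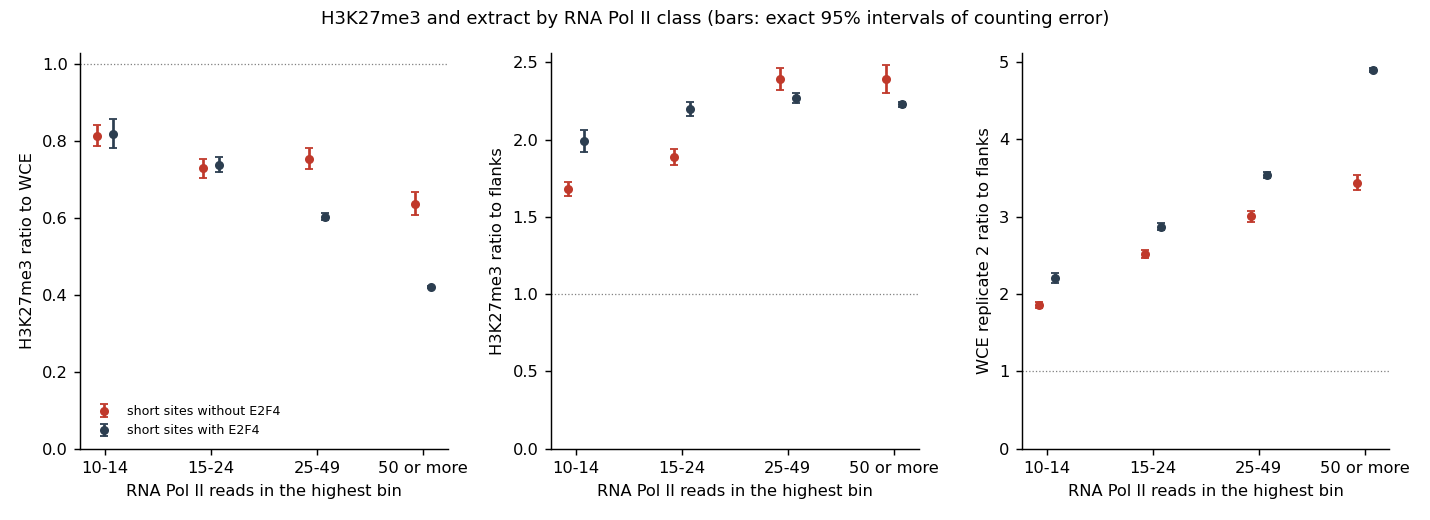
H3K27me3 relative to WCE (left), H3K27me3 relative to flanks (middle) and WCE replicate 2 relative to flanks (right) against the class of RNA Pol II reads in the highest bin, for short sites without E2F4 (red) and with E2F4 (dark). Points are summed reads and bars exact 95% intervals of counting error; the dotted line marks 1. In the left panel the pairs coincide in the 2 weaker classes and part in the 2 stronger ones.

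Single sites spread widely in H3K27me3. The fold over WCE, with 1 read added to each count, had a median of 0.614 (quartiles 0.409 and 0.969) and reached 17.2 at the sites without E2F4, against a median of 0.447 (quartiles 0.328 and 0.614) and a highest value of 23.3 at those with E2F4. Each region was tested by an exact binomial test, two-sided, with Benjamini-Hochberg adjustment over all 13480 RNA Pol II regions. At an adjusted p under 0.05, 114 sites without E2F4 (5.20%) had more H3K27me3 than WCE, where the share over all RNA Pol II regions was 2.66%. Less H3K27me3 than WCE was called at 370 sites (16.9%), where the share over all regions was 53.8%. WCE, against which each region was tested, enters the rule. The sites without E2F4 also hold fewer reads (a median of 12 WCE reads against 31 at the short sites with E2F4). The part of either in the shares was not tested. Among the short sites with E2F4 193 (2.15%) were called higher and 5051 (56.4%) lower. Scaling on background bins moved the counts at the sites without E2F4 to 118 and 317, beside 2.73% and 50.6% of all regions.

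A rule like the one for RNA Pol II gave the same order. The highest RNA Pol II bin of a site held at least 10 H3K27me3 reads at a fold of at least 3 over WCE in 71 of 2192 sites without E2F4, 3.24% (2.54 to 4.07), and in 93 of 8962 with E2F4, 1.04% (0.838 to 1.27). Of all autosomal bins, 1.36% met it. WCE enters both rules, and its part in the difference was not tested.

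**Figure D4:**
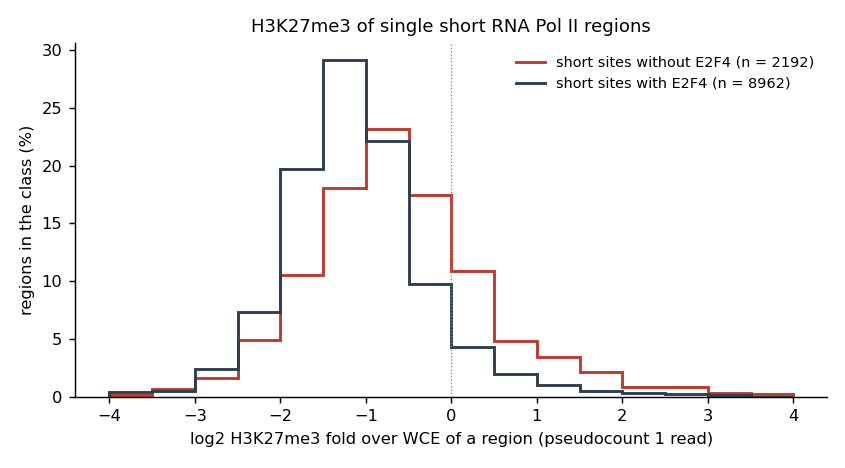
Percentage of regions (y axis) by the log2 fold of H3K27me3 over WCE of single regions (x axis, 1 read added to each count), for short sites without E2F4 (red) and with E2F4 (dark); values beyond the axis are placed in the outermost step. The sites without E2F4 lie further right, and 114 of the 2192 passed the test for more H3K27me3 than WCE.

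The 114 sites with more H3K27me3 than WCE had 9 to 177 H3K27me3 reads (median 29.5) and 10 to 127 RNA Pol II reads (median 23). Together their H3K27me3 ratio was 4.44 (4.17 to 4.72), a value set by the test that chose them. RNA Pol II and H3K27me3 came from separate precipitations, which do not tell whether they occupied the same DNA molecules. E2F4 stood at 0.966 of WCE there (0.831 to 1.12). Within 20 kb of an RNA Pol II region with E2F4 lay 49 of them, 42.98% (33.7 to 52.6).

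Among these sites, 5 had the highest lower limits of the H3K27me3 ratio. Chromosome 11 from 116099001 to 116100000 had 177 H3K27me3 reads, 27 RNA Pol II reads and 1 E2F4 read against 13 WCE reads, an H3K27me3 ratio of 16.7 (9.53 to 32.02). Chromosome 9 from 21739501 to 21740500 had 123 H3K27me3 reads, 95 RNA Pol II reads and 1 E2F4 read against 10 WCE reads, a ratio of 15.1 (7.94 to 32.3). This site had the most RNA Pol II reads of the 5, and its RNA Pol II ratio to WCE was 35.6 (18.5 to 76.5).

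The other 3 sites were single bins with few RNA Pol II reads. Chromosome 18 from 35779001 to 35779500 had 129 H3K27me3 and 10 RNA Pol II reads against 11 WCE reads, and its H3K27me3 ratio was 14.4 (7.79 to 29.6). Chromosome 9 from 107525001 to 107525500 had 94 H3K27me3 and 14 RNA Pol II reads against 8 WCE reads, which gave 14.4 (7.03 to 34.4). Chromosome 12 from 111933501 to 111934000 had 92 H3K27me3 and 11 RNA Pol II reads against 10 WCE reads, which gave 11.3 (5.87 to 24.3). The adjusted p of all 5, by the exact binomial test with Benjamini-Hochberg adjustment, lay between 1.49e-42 and 3.59e-19. None of the 5 had a WCE replicate 1 read, so their background rests on WCE replicate 2.

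The sites lay closer to other RNA Pol II regions than the short sites with E2F4 did, whether or not E2F4 was required of the neighbour. Within 20 kb of an RNA Pol II region with E2F4 were 1246 of 2192 sites, 56.8% (54.7 to 58.9), against 3435 of 8962 short sites with E2F4, 38.3% (37.3 to 39.3), counted to the nearest other such region. The median distance was 14.5 kb and 30 kb. Within 20 kb of any other RNA Pol II region were 63.5% (61.4 to 65.5) of the sites and 43.6% (42.5 to 44.6) of the short sites with E2F4, at median distances of 10.5 and 25 kb. The excess lay at the shortest distances, with 333 sites (15.2%) within 2 kb and 316 (14.4%) at 2 to 5 kb, against 4.92% and 7.45% of the short sites with E2F4. Beyond 100 kb lay 297 sites, 13.5% (12.1 to 15.1), against 17.5% (16.7 to 18.3).

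**Figure D5:**
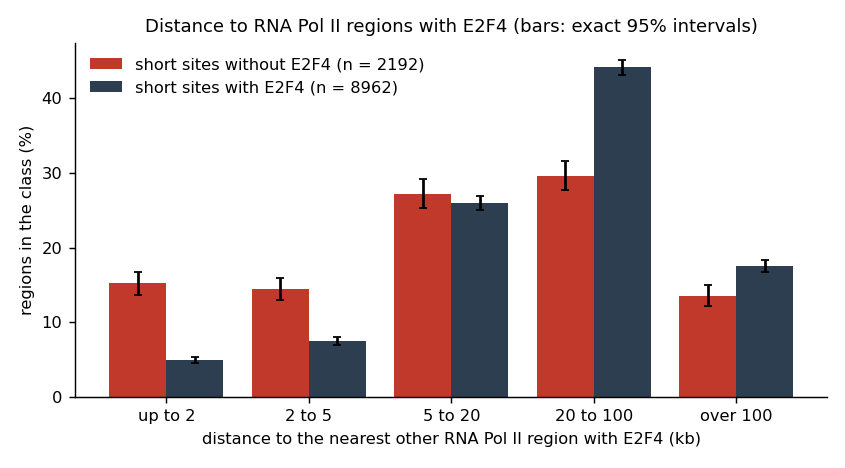
Percentage of regions (y axis) by the distance to the nearest other RNA Pol II region with E2F4 (x axis, kb), for 2192 short sites without E2F4 (red) and 8962 with E2F4 (dark); bars are exact 95% intervals that treat regions as independent trials. Sites without E2F4 are more frequent up to 5 kb and less frequent from 20 kb on.

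The share near such a region was higher among weaker sites. In the classes of RNA Pol II strength from weakest to strongest, 67.1% (63.95 to 70.1), 55.03% (51.1 to 58.9), 44.7% (39.7 to 49.7) and 40.3% (33.7 to 47.1) of the sites without E2F4 lay within 20 kb of a region with E2F4. For the short sites with E2F4 the shares were 48.5% (43.7 to 53.3), 43.5% (40.2 to 46.96), 39.6% (37.2 to 42.1) and 36.5% (35.3 to 37.8). The intervals overlapped in the 2 stronger classes. Regions are not independent trials, so these intervals are too narrow.

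RNA Pol II was also denser in the surroundings of the sites, outside every RNA Pol II region. At 1 to 2 kb it stood at 9.37 reads per kb per 10000000 around sites without E2F4 and at 6.31 around those with E2F4, a ratio of 1.48 (1.45 to 1.52). At 2 to 5 kb the levels were 6.76 and 4.71, at 5 to 20 kb 4.62 and 3.50, and at 20 to 100 kb 3.31 and 2.31. The ratio at 5 to 20 kb was 1.32 (1.31 to 1.33). The autosomal mean was 4.06. Of the 5 to 20 kb surroundings of the sites, 27.4% were shared with those of short sites with E2F4.

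E2F4, H3K27me3 and WCE replicate 2 were also denser around the sites, by less, and WCE replicate 1 was less dense. At 5 to 20 kb the ratio between the surroundings of sites without and with E2F4 was 1.14 in the E2F4 library, 1.12 in the H3K27me3 library, and 1.11 and 0.972 in WCE replicates 2 and 1. Within the classes of RNA Pol II strength the RNA Pol II ratio at 5 to 20 kb was 1.18, 1.05, 1.12 and 1.12 from weakest to strongest, each below the pooled 1.32. With RNA Pol II regions counted in, RNA Pol II density at 2 to 5 kb was 29.2 around sites without E2F4 and 8.63 around those with E2F4, a ratio of 3.38 (3.36 to 3.41).

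Sites with a region with E2F4 at 2 to 20 kb, those at exactly 2 kb included, had more RNA Pol II on the side towards it. Over 1005 such sites, the stretch between the site and the region, without RNA Pol II regions, had 9.69 reads per kb per 10000000 against 7.21 in the mirrored stretch on the far side, a ratio of 1.34 (1.32 to 1.37). WCE replicate 2 gave 1.05 (1.04 to 1.07) and E2F4 1.05 (1.02 to 1.08). H3K27me3 went the other way, at 7.09 between and 8.30 beyond, a ratio of 0.854 (0.843 to 0.865). The stretches were chosen for the position of RNA Pol II regions, and what lies in them was not annotated here. The near stretch always ended at an RNA Pol II region with E2F4, and the mirrored one need not. Outside RNA Pol II regions, RNA Pol II around short sites with E2F4 was 6.31 at 1 to 2 kb and 3.50 at 5 to 20 kb. The part of this layout in the ratio of 1.34 was not tested.

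Sites far from any region with E2F4 differed from the near ones. From within 2 kb to beyond 100 kb, in 5 distance classes, the median RNA Pol II count of a site went through 15, 17, 19, 21 and 25 reads. RNA Pol II density 1 to 5 kb around them, outside RNA Pol II regions, went through 14.5, 14.3, 8.08, 4.23 and 3.41. H3K27me3 stood at 0.678 of WCE (0.644 to 0.714) within 2 kb and at 0.870 (0.829 to 0.912) beyond 100 kb. In the classes between, it went through 0.625, 0.755 and 0.763, so it did not rise steadily. WCE enters the rule, and its part in these ratios was not tested. E2F4 stood at 0.717 of WCE (0.652 to 0.787) within 2 kb and at 0.927 (0.852 to 1.01) beyond 100 kb. This is a description only, since E2F4 and WCE both entered the rule. Near sites thus held fewer RNA Pol II reads and had denser RNA Pol II around them than far sites. The classes were set by the distance to RNA Pol II regions. For sites within 5 kb of such a region, the stretch 1 to 5 kb away reaches or adjoins it. The part of this layout in the densities was not tested.

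Most sites lay far from each other, with a median distance of 103.75 kb to the next and 480 of 2192 (21.9%) within 20 kb of another. At most 9 sites fell within 100 kb, which happened in 2 stretches, both on chromosome 6. From 36650001 to 36721000, a length of 71 kb, 17 RNA Pol II regions lay in all and 1 of them had E2F4. Its 9 sites had 10 to 46 RNA Pol II reads and 0 to 5 E2F4 reads each, and over the whole stretch H3K27me3 stood at 0.453 of WCE (0.389 to 0.527). From 4452001 to 4552000, a length of 100 kb, 15 RNA Pol II regions lay in all and 4 of them had E2F4. Its 9 sites had 12 to 111 RNA Pol II reads and 0 to 4 E2F4 reads each, and H3K27me3 stood at 0.814 of WCE (0.732 to 0.905). H3K27me3 relative to WCE thus differed between the 2 stretches by more than counting error.

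By chromosome, sites ranged from 0.460 per Mb on chromosome 14 to 1.56 per Mb on chromosome 11. As a share of all RNA Pol II regions they ranged from 12.7% (9.78 to 16.03) on chromosome 19 to 20.6% (18.1 to 23.2) on chromosome 7. E2F4 read density on these chromosomes was 5.01 and 3.40 reads per kb per 10000000. Its part in the difference was not tested.

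The reads at the sites had the strand pattern of short fragments. Plus-strand reads made up 50.04% of the RNA Pol II reads (49.7 to 50.4). The median of minus-strand 5′ ends lay downstream of that of plus-strand 5′ ends by a median of 130 bp (quartiles 85 and 173.5) over the 1753 sites with at least 5 reads on each strand. At the short sites with E2F4 the distance was 135.5 bp (quartiles 108 and 163.5). Minus-strand 5′ ends were placed with the 26 bp seed length as read length, so longer reads would change both distances. Only 20 sites (0.912%) had strands uneven at an exact binomial p under 0.01, against 120 (1.34%) of the short sites with E2F4.

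At the sites a larger share of RNA Pol II reads fell in the densest 200 bp, and fewer were repeats, than at the short sites with E2F4. The densest 200 bp held a median of 66.8% of a site's RNA Pol II reads, against 58.3% at the short sites with E2F4, which are longer. The sites also hold fewer RNA Pol II reads, with a median of 19 against 108. The part of read number in this share and in the repeats was not tested. Repeats of a position, removed before counting, made up 7.66% of the RNA Pol II reads at the sites and 14.7% at the short sites with E2F4. For H3K27me3 these shares were 12.5% and 12.4%.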

How the data were processed

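Each file, as deposited, lists where reads aligned on mouse build mm8, with a sign for the strand; these positions are not a count or a signal. Per the file headers the authors aligned with bowtie (settings -e 70, -k 2, -m 2, -n 2, seeds of 26 or 36 bp). No version number was given with it. Positions were taken as the leftmost base counted from 0, which the files do not state; an error there would move every site by 1 bp. Per the labels' protocols, sonicated chromatin averaged 500 bp, and after 18 PCR cycles products of 150 to 350 bp were cut from a gel.

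Reads with 1 placement were kept once per position and strand, 5′ ends moved 60 bp downstream and counted in 500 bp bins. The seed length of a library was taken as its read length to place minus-strand 5′ ends. Longer reads would move those ends. The fold adds 1 read to each count and scales by autosomal totals. Ratios have exact conditional binomial intervals (Clopper-Pearson, 95%). Background bins had at most 2 RNA Pol II reads and at least 1 WCE read. The calling was tested on simulated data. Python 3.11.15, NumPy 2.4.6, SciPy 1.17.1 and Matplotlib 3.10.9 were used. The members and comparisons were chosen with earlier results of these data known. Named sites are the 5 highest lower limits for RNA Pol II and for H3K27me3, the 3 strongest without E2F4 reads, the edges of the rule and the stretches with most sites in 100 kb. The gene and sequence tables used here are of a later mouse build, so no gene is named and no sequence printed.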

Additional observations from a re-analysis of the deposited data

Results flagged for a closer look

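Reads listed at 2 places were left out of the choice of sites but also carried RNA Pol II signal there. The sites held 9201 such RNA Pol II reads, a ratio of 15.6 (14.9 to 16.5) to the WCE reads of the same kind, against 18.99 (18.5 to 19.5) at the short sites with E2F4. For E2F4 the ratio was 1.90 (1.75 to 2.06) at the sites without E2F4 and 6.48 (6.28 to 6.69) at those with E2F4. At least 10 such RNA Pol II reads fell on 102 of the 2192 sites. The true place of such a read is not known.

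Chromosome X was outside the rule. With the same limits and autosomal totals it gave 107 sites without E2F4 among 427 RNA Pol II regions, 25.1% (21.02 to 29.5), where the autosomes had 16.3%. Their RNA Pol II ratio to WCE was 14.3 (13.3 to 15.4) and their H3K27me3 ratio 0.626 (0.560 to 0.699). The E2F4 reads at these 107 sites numbered 222. The part of read depth on this chromosome in the share was not tested.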

How the results depend on the processing

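Over 13 alternatives, H3K27me3 at the sites stayed above their flanks (1.84 to 2.09). RNA Pol II at 5 to 20 kb stayed above that around short sites with E2F4 (1.19 to 1.58). WCE was 0.535 to 0.675 of that at short sites with E2F4, a description only, since WCE enters the rule. The number of sites was 703 with 1 E2F4 read allowed and 3454 with 5. H3K27me3 over WCE stayed at 0.689 to 0.807 in 12 alternatives. H3K27me3 relative to short sites with E2F4 was 1.02 with 5 E2F4 reads allowed, 1.02 with at least 15 RNA Pol II reads, 0.987 at 1000 bp, 0.986 on a moved grid and 0.987 with the E2F4 limit on all reads, an alternative added after the data were seen; the cause was not tested. The share within 20 kb of a region with E2F4 was 69.7% with 1 E2F4 read allowed, 47.5% with 5, 52.3% with at least 15 RNA Pol II reads, 64.8% with only touching bins joined, 59.4% with all reads kept and 60.9% with the E2F4 limit on all reads. Leaving out 1 WCE replicate gave 944 to 2180 sites, H3K27me3 over WCE of 0.723 to 16.7, H3K27me3 relative to short sites with E2F4 of 0.977 to 1.001 and a share of 49.7% to 57.1%, where 944 sites, 16.7, 1.001 and 49.7% came without WCE replicate 2. No paired analysis was possible because each antibody had 1 library. At a site with 12 WCE reads only large ratios can be told from 1.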
